A study of Arabidopsis thaliana with 29 samples.

Results

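Seedlings grown with abscisic acid (ABA) were compared directly with seedlings grown with 1-aminocyclopropane-1-carboxylic acid (ACC), the compound from which plants make ethylene, in 6 transgenic lines of Arabidopsis thaliana. The comparison took 12 of the 29 ATH1 arrays of the series. Each line gave 1 ABA array and 1 ACC array, and these were paired. All lines are in the Col-0 background. PV-NES was represented by its lines 1, 7 and 11. The lines of PV-NLS were numbers 4, 5 and 8. They carry parvalbumin, a Ca2+-binding protein, targeted to the cytosol in PV-NES and to the nucleus in PV-NLS. Both sides of the comparison therefore share the transgene, whose promoter is not given in the sources used here. Seeds were stratified for 3 days and grown for 3 days, and whole seedlings then spent 5 days on plates with 10 µM ABA or 1 µM ACC at 22 °C in long days. The doses differed, so the treatments were compared as given and not at matched concentrations. The 6 arrays of the same lines without hormone gave the control level. WT seedlings, with 1 ABA and 1 ACC array, are set beside the lines without a test.

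ABA is the hormone of drought and seed dormancy. Its receptors inactivate protein phosphatases, which frees kinases that switch on genes for protective proteins, among them the late embryogenesis abundant (LEA) proteins. Ethylene receptors in the endoplasmic reticulum repress their pathway until ethylene binds, after which the transcription factor EIN3 and the ethylene response factors act on target genes. In seedlings ethylene is best known for short roots, thick hypocotyls, the exaggerated apical hook in the dark and extra root hairs.

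ABA and ACC were separated by 751 of 22589 genes, or 3.32% of those tested. A gene was called when its mean difference over the lines was larger than 2-fold with an adjusted p under 0.05 (limma, paired by line, Benjamini-Hochberg over all genes). Higher with ABA were 473 genes (2.09%), and higher with ACC were 278 (1.23%), beside a median difference of -0.01 over all genes. A single gene name was available for 227 of the former and 141 of the latter, which is 1.7% and 1.06% of the 13356 named genes, or 2.76% in either direction. Counts over gene lists below stand against these shares of named genes, and in a list of few members 0 or 1 called gene is near them. The ABA side held more of the large differences, with 137 genes past 4-fold and 24 past 16-fold against 49 and 8 on the ACC side. All 6 lines went the same way in 470 of the 473 and in 265 of the 278. The 6 ABA arrays and the 6 ACC arrays did not overlap in 455 and 248 of these genes. Choice by the same difference largely fixes both the shared direction and the lack of overlap. The share of all genes with 6 lines in the same direction was not counted. Over all genes tested, ABA lay wholly above ACC in 6.66% and wholly below in 6.1%. All levels below are RMA log2 signals, on which a step of 1 is 2-fold. Differences are ABA minus ACC on that scale unless stated otherwise, with the standard error (SE) of the fit over 6 lines.

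LEA genes, whose proteins protect drying cells, were among the genes highest with ABA. LEA4-5 lay between 9.59 and 10.12 on the 6 ABA arrays, with a median of 9.96. On the ACC arrays LEA4-5 lay between 3.79 and 4.47, with a median of 4.09. The groups were far apart, and the difference for LEA4-5 was 5.78 (SE 0.11, adjusted p = 2.17e-11), or 55.0-fold. LEA18 lay between 7.12 and 8.23 with ABA and between 2.12 and 3.04 with ACC, a difference of 5.28 (SE 0.14, adjusted p = 2.01e-10). AtLEA4-1 differed by 4.42 (SE 0.12) and M17 by 4.23 (SE 0.12). The largest difference of a named gene belonged to AT3G17520, to which the sources used here give no role. AT3G17520 lay between 8.65 and 9.50 with ABA and between 2.60 and 2.98 with ACC, a difference of 6.23 (SE 0.09, adjusted p = 2.34e-12). Also without a stated role, AT3G15670 differed by 5.70, AT3G02480 by 5.60, AT5G66780 by 5.23 and AT1G04560 by 5.02. AT2G28490 differed by 4.71, AT5G07330 by 4.57 and AT2G23110 by 4.42. On the ACC arrays these 12 genes all lay below 5.27, the lowest array median, where fold sizes are uncertain.

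**Figure D1:**
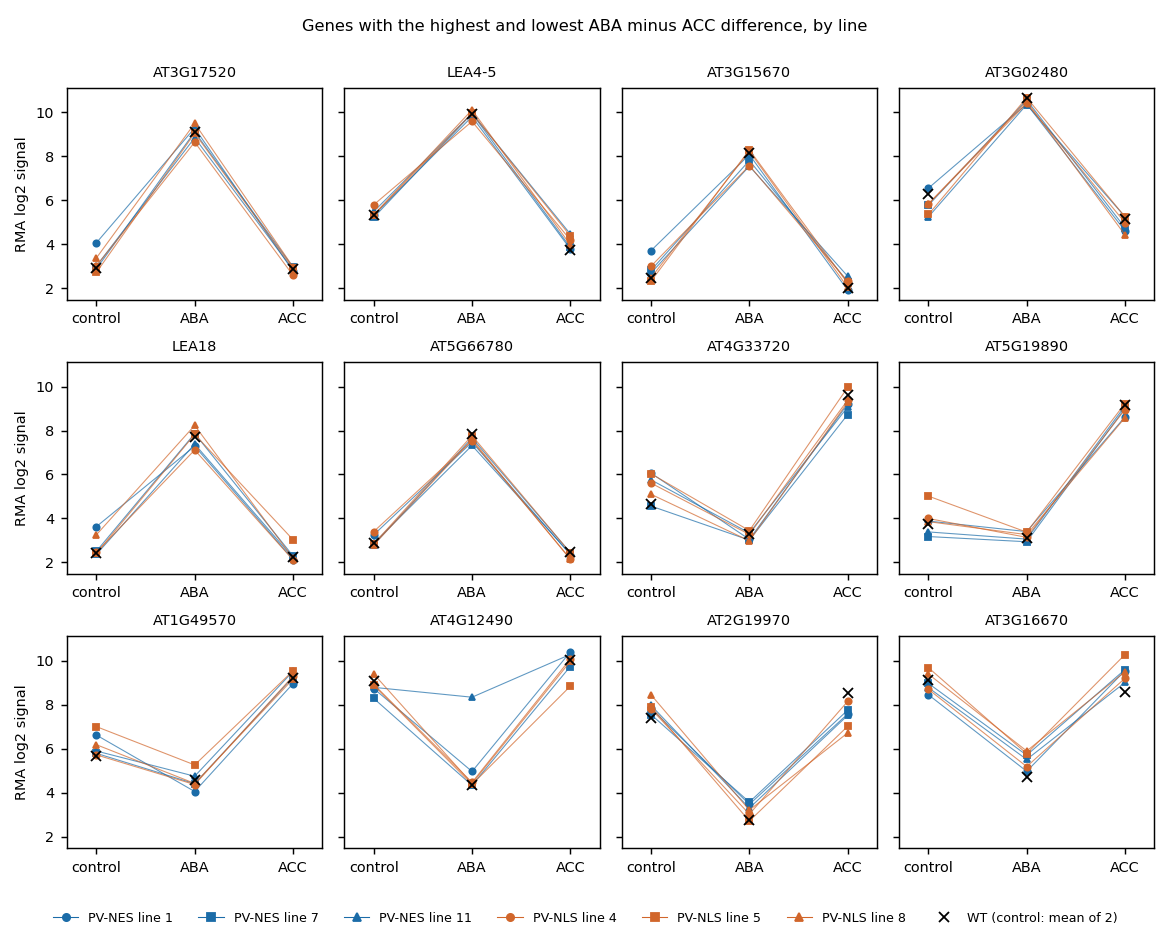
RMA log2 signal (vertical axis) with control, ABA and ACC for the 6 named genes with the largest positive and the 6 with the largest negative ABA minus ACC difference; points are single arrays joined by line and crosses are WT. LEA4-5 and its companions peak with ABA, AT5G19890 reaches 8.58 to 9.23 with ACC, and 1 array of AT4G12490 stays at 8.34 with ABA.

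As a group, LEA, dehydrin and cold-regulated genes had the median 2.33. Of 13 measured members, 8 were higher with ABA, 0 were higher with ACC and 5 were not called. The dehydrin gene LEA differed by 3.14 (SE 0.08). LTI30, a dehydrin of plants in the cold, lay between 10.51 and 10.84 with ABA and between 8.12 and 8.58 with ACC, a difference of 2.33 (SE 0.08). COR47, another dehydrin, differed by 1.32 (SE 0.10). COR15A, a cold-induced protein of the chloroplast, differed by 2.56 (SE 0.35), but unevenly. In PV-NES line 11 the ACC level of COR15A was 8.62 and the difference 0.26, while the other lines gave 1.95 to 3.58. Its relative COR15B had -0.89 (SE 0.26, adjusted p = 0.0254), with -2.62 in that same line, and COR27 had -0.86 (SE 0.16). Neither reached 2-fold, although COR15B did without PV-NLS line 5 (-1.05) and COR27 without PV-NES line 7 (-1.05). AT2G44060 (LEA26) had 0.09 and AT1G54410 (HIRD11, a dehydrin) had -0.13.

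Other genes known for induction by ABA or drought were higher with ABA in 3 of 5 measured members. PUB19, a U-box ubiquitin ligase, differed by 2.59 (SE 0.17), and the linker histone gene HIS1-3 by 2.31 (SE 0.14). The aldehyde dehydrogenase gene ALDH7B4 differed by 1.01 (SE 0.09). ALDH7B4 sat at the limit of 2-fold and was under it without PV-NES line 11 (0.94), PV-NES line 7 (0.997) or PV-NLS line 4 (0.97). HVA22C had -0.02 and RD2 had 0.04. ICL encodes isocitrate lyase of the glyoxylate cycle, which helps turn seed lipid into sugar. ICL lay between 6.85 and 8.10 with ABA and between 4.08 and 4.92 with ACC, a difference of 2.90 (SE 0.13). PAP85, a seed storage protein gene, was high with ABA in 2 lines only, at 4.78 in PV-NES line 7 and 5.48 in PV-NLS line 8. The ABA level of PAP85 was between 2.68 and 3.04 in the other lines, and its mean difference of 1.01 did not pass the test (SE 0.35, adjusted p = 0.0576). PAP85 was called in fits that took in 24 arrays (adjusted p = 0.0332) or all 29 (0.0343), and without PV-NES line 11 (1.24, adjusted p = 0.0333).

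Among the genes with the largest ACC over ABA differences, some stood above control with ACC, some stood below control with ABA and some did both. The comparisons with control share arrays with each other and with the direct comparison, so their values are given side by side only. AT4G33720 had the largest difference, with 2.98 to 3.45 on the ABA arrays and 8.72 to 9.96 on the ACC arrays. The difference was -6.09 (SE 0.11, adjusted p = 1.14e-11). The control arrays of AT4G33720 lay between, at 4.56 to 6.06, with 3.75 for ACC minus control and -2.33 for ABA minus control. AT5G19890 lay between 8.58 and 9.23 with ACC, between 2.94 and 3.40 with ABA and between 3.18 and 5.02 in the control, a difference of -5.72 (SE 0.12). For AT5G19890 the values were 5.03 for ACC minus control and -0.69 for ABA minus control, but the control and ABA arrays both lay below the lowest array median of 5.27, where a lowering by ABA could hardly show. AT1G49570 differed by -4.75 (SE 0.09), with 3.09 for ACC and -1.66 for ABA against control. AT4G11290 differed by -3.06 (SE 0.14), with 1.91 and -1.16. AT5G19890 is a peroxidase gene, and the sources used here state no role for AT4G33720, AT1G49570 and AT4G11290. None of these 4 genes entered the lists of peroxidase or pathogenesis-related genes below.

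Prx37, a class III peroxidase, was arranged in the same way. Its ACC arrays lay between 7.71 and 8.19, its control arrays between 5.11 and 5.999 and its ABA arrays between 4.57 and 5.06. The difference for Prx37 was -3.11 (SE 0.11, adjusted p = 3.11e-09). Class III peroxidases are secreted enzymes that stiffen or loosen walls. Of the 3 members of their list, Prx37 was higher with ACC, PRX52 was higher with ABA (1.11, SE 0.13) and AT5G66390 (PRX72) was not called (-0.27). Without PV-NES line 11 the difference of PRX52 was 0.97, which is not called. The list took genes by symbol or synonym, and AT5G19890 above, which was higher with ACC, was not in it. More peroxidase genes outside the list, picked after their values were seen, went both ways. Members known by locus alone can be missing, so these genes do not give the balance of the family. AT5G64120 (PRX71) had -1.80 (SE 0.26), with groups that overlapped. AT2G41480 (PRX25) had 1.58 (SE 0.09), and AT3G01190 had 1.83 (SE 0.09), with -1.87 for ACC minus control and -0.04 for ABA minus control.

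Other genes on the ACC side stood far below control with ABA. AT4G12490 (AZI3), a lipid transfer protein of the AZI family, had a median of 4.44 with ABA, 10.02 with ACC and 8.84 in the control, and its difference was -4.74 (SE 0.39). Against control AT4G12490 had -3.69 for ABA and 1.05 for ACC, and the latter did not pass the test (adjusted p = 0.0765). AT3G16530, a lectin-like gene, differed by -3.94 (SE 0.19), with -4.47 for ABA minus control and -0.54 for ACC minus control. AT3G16670, of the Pollen Ole e 1 allergen and extensin family, differed by -4.02 (SE 0.14), with -3.49 and 0.53. UGT72E1 and UGT72E2 encode glucosyltransferases that act on monolignols and related phenylpropanoids. UGT72E1 lay between 7.75 and 8.15 with ACC, between 7.62 and 8.12 in the control and between 5.16 and 6.05 with ABA, a difference of -2.24 (SE 0.09). UGT72E2 differed by -1.58 (SE 0.11). AT2G19970 differed by -4.24 (SE 0.15) and AT4G15390 by -3.44 (SE 0.11), with -0.47 and 0.16 for ACC minus control. AT1G66100 was below control with either hormone, by -4.28 for ABA and -1.36 for ACC, and differed between them by -2.92 (SE 0.30).

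In most called genes ABA lay farther from control than ACC did. For the 473 genes higher with ABA, the median was 1.16 for ABA minus control and -0.34 for ACC minus control, beside 0.03 and 0.03 over all genes. ABA was the farther from control in 392 of them. The control mean of 222 of the 473 lay below the lowest array median, where a lowering by ACC could hardly show. For the 278 genes higher with ACC, the medians were -1.21 and 0.21, and ABA was the farther in 229. The share of all genes with ABA the farther was not counted, so 392 and 229 have no background. Against control ABA changed 715 genes (3.17%), of which 376 were higher (1.66%) and 339 lower (1.5%). ACC changed 174 genes (0.77%), of which 71 were higher (0.314%) and 103 lower (0.456%).

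A smaller set was separated mainly by ACC. DFR encodes dihydroflavonol reductase, an enzyme of anthocyanin synthesis. DFR lay between 4.83 and 6.38 with ACC, between 8.10 and 9.17 with ABA and between 7.66 and 8.25 in the control. Its difference was 2.89 (SE 0.23, adjusted p = 2.64e-06), with -2.24 for ACC minus control and 0.65 for ABA minus control. AT3G58550 differed by 2.58 (SE 0.19), with -2.13 for ACC minus control, and PV-NLS line 4 gave only 1.298 against 2.52 to 3.18 in the other lines. FACT, which joins caffeate to fatty alcohols for root waxes, differed by 1.998 (SE 0.18), with -1.41 for ACC minus control and 0.59 for ABA minus control. CCR2, a cinnamoyl-CoA reductase, differed by 2.12 (SE 0.10), with -1.23 and 0.90, so that ABA had a large part as well and the hormones lay on opposite sides of control. On the other side, AT3G05950 lay between 5.09 and 6.66 with ACC, a difference of -2.65 (SE 0.15). It lay between 2.96 and 3.30 with ABA and between 2.94 and 3.30 in the control. Both ranges were below the lowest array median of 5.27, where a lowering by ABA could hardly show. CYP718, a cytochrome P450, differed by -1.53 (SE 0.13), with 1.46 for ACC minus control and -0.07 for ABA minus control. CYP718 was the only one called of 24 measured cytochrome P450 genes, beside 2.76% of named genes.

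**Figure D2:**
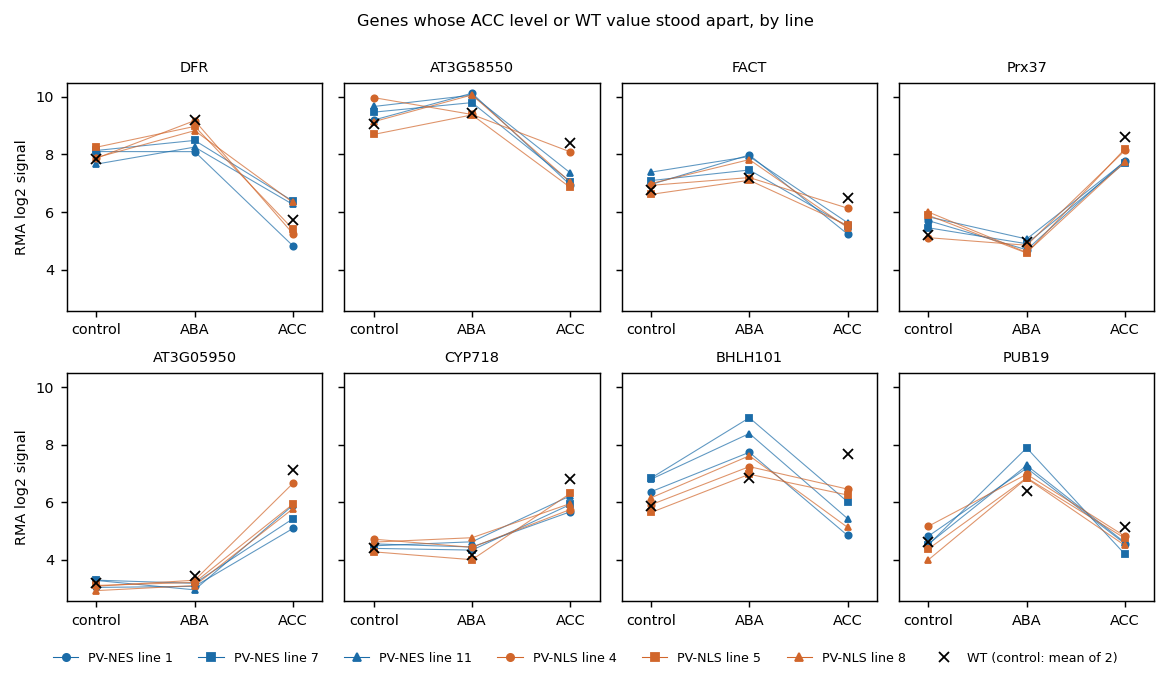
RMA log2 signal (vertical axis) with control, ABA and ACC by line for 8 genes whose ACC level or WT value stood apart; points are single arrays and crosses are WT. DFR, AT3G58550 and FACT are lowest with ACC, AT3G05950 and CYP718 are high with ACC only, and BHLH101 has WT values of 6.83 with ABA and 7.69 with ACC against the opposite order in every line.

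Flavonoid and anthocyanin genes shared a direction. Of 5 measured members, 4 were higher with ABA and 0 with ACC, with a median of 1.59. Beside DFR these were UF3GT (2.32, SE 0.15) and UGT78D2 (1.14, SE 0.10), which attach sugars to flavonoids, and AT5MAT (1.59, SE 0.09), which adds malonyl groups to anthocyanins. UGT78D1, a flavonol rhamnosyltransferase, had 0.69 (SE 0.09) and was not called. UF3GT lay between 7.46 and 8.25 with ABA, between 5.17 and 5.96 with ACC and between 6.15 and 6.86 in the control, so that the hormones lay on opposite sides of control. CHIL, a chalcone isomerase-like gene noted after its values were seen, differed by 1.12 (SE 0.10).

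Sugar transporters were called in 2 of 19 measured members, both higher with ABA (1.7% of named genes), with a median of 0.06. SWEET13, a sucrose efflux carrier, differed by 2.69 (SE 0.21) and SWEET4 by 1.68 (SE 0.07), while SWEET11 had 0.06 and SFP1 had 0.46. SAG29, a senescence-associated gene also known as SWEET15, lay between 9.29 and 9.78 with ABA and between 5.08 and 5.88 with ACC, a difference of 3.99 (SE 0.13). SAG29 was the only 1 called of 4 senescence genes. WRKY53 and WRKY6, transcription factors of leaf senescence, had -0.92 (SE 0.16) and 0.87 (SE 0.09). APL3, a subunit of the enzyme that starts starch synthesis, differed by 1.52 (SE 0.20), with 0.35 in PV-NLS line 8 and 1.19 to 2.47 in the other lines.

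Cell wall genes were called in both directions. Of 51 expansin, xyloglucan endotransglucosylase/hydrolase (XTH) and trichome birefringence-like (TBL) genes, 4 were higher with ABA (1.7% of named genes), 4 were higher with ACC (1.06%) and 43 were not called, with a median of 0.02. EXLB1, an expansin-like gene, lay between 9.89 and 10.19 with ABA and between 7.43 and 8.04 with ACC, a difference of 2.297 (SE 0.09). TBL26 (1.36), TBL37 (1.14) and EXLA1 (1.04) were also higher with ABA. EXLA1 was under 2-fold without PV-NES line 1 (0.97), PV-NES line 7 (0.95) or PV-NLS line 8 (0.998). EXPA8, an alpha-expansin that loosens walls, lay between 8.30 and 9.22 with ACC and between 5.35 and 6.68 with ABA, a difference of -2.50 (SE 0.15). TBL36 (-1.62, SE 0.11), XTH20 (-1.21, SE 0.11) and XTH26 (-1.02, SE 0.23) followed on the ACC side. XTH26 was in the list of root hair genes, and its line differences ran from -2.16 to -0.04 with overlapping groups. XTH26 was not called without PV-NES line 7 (-0.80), PV-NLS line 4 (-0.95) or PV-NLS line 5 (-0.96). EXPA7 and EXPA18, the other root hair genes measured, had 0.70 and 0.11.

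Among UDP-glycosyltransferases, which attach sugars to hormones and secondary metabolites, 4 of 50 were higher with ABA and 2 were higher with ACC, again beside 1.7% and 1.06% of named genes. Of 18 thionin, defensin and pathogenesis-related genes, 4 were higher with ABA and 0 with ACC. They were the chitinase genes CHI (2.01, SE 0.11) and ChiC (1.46, SE 0.15) and the defensin genes PDF1.4 (1.59, SE 0.13) and PDF2.1 (1.26, SE 0.16). The list took genes by symbol or synonym. It did not hold the thionin gene AT1G66100 or the pathogenesis-related-like gene AT2G19970, which were higher with ACC. The 0 on the ACC side therefore holds for the listed genes only. CHI lay on opposite sides of control, with 1.03 for ABA and -0.98 for ACC.

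Few genes of the hormone pathways were measured under a name, and none of these was called, beside 2.76% of all named genes. With so few members that count is near the background. RTE1, which acts with the ethylene receptor ETR1, lay between 7.26 and 7.53 with ABA and between 7.66 and 7.98 with ACC. The RTE1 groups did not overlap, but the difference of -0.48 (SE 0.08, adjusted p = 0.00122) was within 2-fold. ETP2, an F-box protein that targets EIN2, had -0.33 (SE 0.07, adjusted p = 0.00392), EIN3 had -0.18 (SE 0.08, adjusted p = 0.15) and RTH had -0.09 (SE 0.07). None of 5 ethylene response factor and AP2 genes was called, with values from -0.73 for tny to 0.25. Of 3 known ethylene outputs, ARL, which promotes cell expansion, had -0.45 (SE 0.08), and the other two were the defensin genes PDF1.2 and PDF1.2b, described below by line. Core ABA receptors, phosphatases and kinases had 0 members measured under a name. The transcription factor genes STZ and EEL had -0.77 (SE 0.34) and -0.39 (SE 0.10). UGT71B6 and UGT71C5, which glucosylate ABA, had 0.29 and -0.37. Of 149 ABA pathway genes listed in the supplement of the study, 7 were measured under a name and 0 were called.

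**Figure D3:**
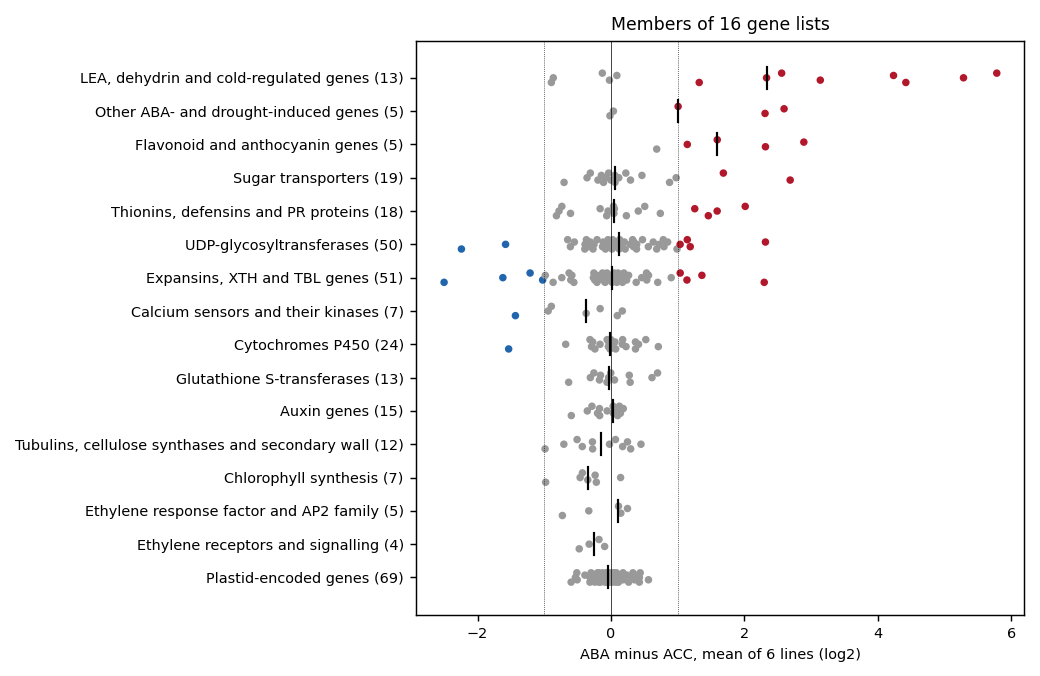
ABA minus ACC difference (log2, mean of 6 lines, horizontal axis) of each measured member of 16 gene lists, with the number of members in brackets; red was called higher with ABA, blue higher with ACC and grey not called, black bars are medians and dotted lines mark 2-fold. LEA, dehydrin and cold-regulated genes have a median of 2.33, and the 69 plastid-encoded genes stay within 2-fold.

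Several growth and housekeeping groups held no called gene, which at 2.76% of named genes called is near the background for groups of this size. These were 15 auxin genes (median 0.03), 13 glutathione S-transferases (-0.03), 12 tubulin, cellulose synthase and secondary wall genes (-0.15), 9 cell cycle and histone genes (0.03), 8 light-harvesting and nuclear photosystem genes (-0.10) and 7 chlorophyll synthesis genes (-0.35). Markers of seedling organs were high on both sides. RCA, the Rubisco activase of leaves, lay between 12.31 and 12.64 on all 12 arrays, with a difference of 0.22 (SE 0.07). PYK10, an abundant beta-glucosidase of roots, lay between 11.34 and 11.88, with a difference of -0.27 (SE 0.07). FMA, a guard cell regulator, had -0.38 (SE 0.11), the lowest of 3 guard cell markers, whose median was -0.08 and highest value 0.07. The meristem marker measured had 0.26, and the flower and seed coat markers AGL66, AGL104 and BAN had -0.01, -0.09 and 0.03. In whole seedlings, fewer cells of a type and less RNA per cell cannot be told apart, and the part of organ composition in the differences was not tested.

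Calcium sensors are of interest because both transgenes bind Ca2+. Of 7 measured genes for such sensors, 1 was called, CML38, which was higher with ACC (-1.43, SE 0.34, adjusted p = 0.00927). In PV-NES line 7 the difference of CML38 was 1.06, and in the other lines it was between -2.09 and -1.62. The ABA level of CML38 was 6.65 in that line and between 3.61 and 4.02 elsewhere, and without the line the difference was -1.93. With all lines CML38 was not called by the methods' t-test (adjusted p = 0.0701), the paired t-test (0.130) or limma with a trend and robust variances (0.101). STZ, a zinc finger repressor, showed the same line apart, with 8.67 with ABA against 5.97 to 6.73 elsewhere. Without PV-NES line 7 STZ had -1.21 and was called. WRKY53, not called with all lines, was called without PV-NES line 7 (-1.04) and also without PV-NES line 11 (-1.07). CML30 and CML42 had -0.89 (SE 0.09) and -0.94 (SE 0.09), below 2-fold. Of 69 calcium signal-decoding genes of the supplement measured under a name, CML38 was the only one called, a share near the 2.76% of all named genes.

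Other genes rested on other lines. AT4G12490 had 8.34 with ABA in PV-NES line 11 and 4.33 to 4.96 elsewhere, so that its line difference was -1.95 there and -5.62 to -4.47 elsewhere. Without that line the mean difference of AT4G12490 was -5.30. AT4G12500, of the lipid transfer protein superfamily, had 5.44 with ABA in that line and 2.70 to 3.04 elsewhere. PDF1.2 and PDF1.2b, defensins known as joint outputs of jasmonate and ethylene, were high in PV-NLS line 5 alone among the ACC arrays, at 6.503 and 9.46. PDF1.2 lay between 2.60 and 3.12 on the other ACC arrays. The control array of PV-NLS line 5 was high as well, at 7.79 for PDF1.2 and 10.41 for PDF1.2b. The mean differences of PDF1.2 (-0.78, SE 0.38) and PDF1.2b (-0.74, SE 0.50) did not pass the test, and without PV-NLS line 5 they were -0.22 and 0.01. The probe sets of these close relatives may share signal. Over the 751 genes, 85 (PV-NES line 1) to 155 (PV-NES line 11) were not past 2-fold in a given line, and 173 were past 2-fold in every line but 1.

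**Figure D4:**
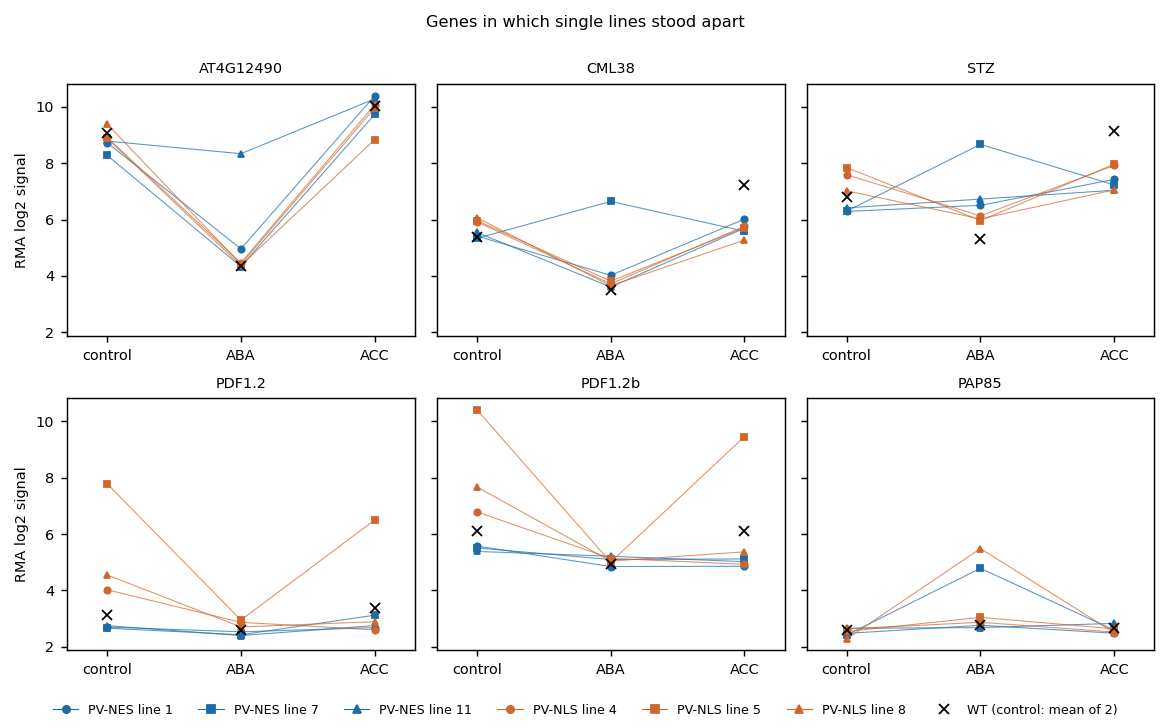
RMA log2 signal (vertical axis) with control, ABA and ACC by line for 6 genes in which single arrays stood apart; points are single arrays and crosses are WT. CML38 and STZ are high with ABA in PV-NES line 7 (6.65 and 8.67) and AT4G12490 in PV-NES line 11 (8.34), while PDF1.2 and PDF1.2b are high in PV-NLS line 5 except with ABA.

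No gene was called in opposite directions in the genotypes. In PV-NES 775 genes were called (3.43%), with 522 higher with ABA (2.31%) and 253 higher with ACC (1.12%). In PV-NLS 810 were called (3.59%), with 453 (2.01%) and 357 (1.58%). Called in both were 369 genes higher with ABA, or 70.7% of such genes in PV-NES and, from the PV-NLS side, 81.5%. For genes higher with ACC the number was 203, or 80.2% and 56.9%. The test of the difference between genotypes called 0 genes (limma), with a smallest adjusted p of 0.252, while 1573 genes had an unadjusted p under 0.05, 49 of them past 2-fold. The fit without the line block called 2, ndhJ and ndhK. The plastid gene ndhJ encodes a subunit of the chloroplast NADH dehydrogenase-like complex. Among the PV-NES lines its differences were 0.41 (line 1), 0.67 (line 7) and 0.49 (line 11). Among the PV-NLS lines they were -0.54 (line 4), -0.70 (line 5) and -0.50 (line 8). The genotypes did not overlap, and PV-NLS minus PV-NES was -1.10 (SE 0.14, adjusted p = 0.252). For ndhK, of the same complex, it was -1.04 (SE 0.15, adjusted p = 0.284). For rpl36, a plastid ribosomal protein gene singled out after its values were seen, it was -1.16 (SE 0.20, adjusted p = 0.431). Lines of opposite sign in the genotypes, as in these genes, were found in 520 genes, or 2.3% of all tested. The 69 plastid genes as a whole had a median of -0.03 in either genotype. Their medians by line ran from -0.30 (PV-NLS line 8) to 0.09 (PV-NLS line 5). Between genotypes, 10 of the 69 (14.5%) had an unadjusted p under 0.05 (limma), beside 6.96% of all genes. Whether the plastid genes differed between genotypes as a set was not tested. In the order PV-NES, PV-NLS the means of AT2G47200 were 1.17 and 0.38 and those of AT4G04760 were -0.35 and 0.53, each with an adjusted p of 0.431 for the difference between genotypes.

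WT gave the same contrast once more, outside the fit and with no replicate. Past 2-fold were 1923 genes in WT (8.51%), with 1101 higher with ABA (4.87%) and 822 higher with ACC (3.64%). Of the 473 genes higher with ABA in the lines, 463 had the same sign in WT, 356 (75.3%) were past 2-fold the same way and 2 were past 2-fold the other way. Of the 278 genes higher with ACC, 273 had the same sign, 235 (84.5%) were past 2-fold the same way and 1 the other way. The share of all genes with the same sign was not counted, so 463 and 273 have no background. Over all genes the differences in WT and in the lines had an r of 0.74. LEA4-5 had 6.19 in WT, AT4G33720 had -6.31 and Prx37 had -3.64. BHLH101, a transcription factor of iron deficiency, went the other way. BHLH101 differed by 2.12 (SE 0.30, adjusted p = 0.00027) in the lines, but by -0.85 in WT. The PV-NES lines gave 2.89 to 2.95 and the PV-NLS lines 0.72 to 2.48. PV-NLS minus PV-NES was -1.59 for BHLH101 and did not pass the test between genotypes (limma, adjusted p = 0.687). STZ and CML38 had -3.82 and -3.74 in WT. Differences between WT and the lines were not tested.

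**Figure D5:**
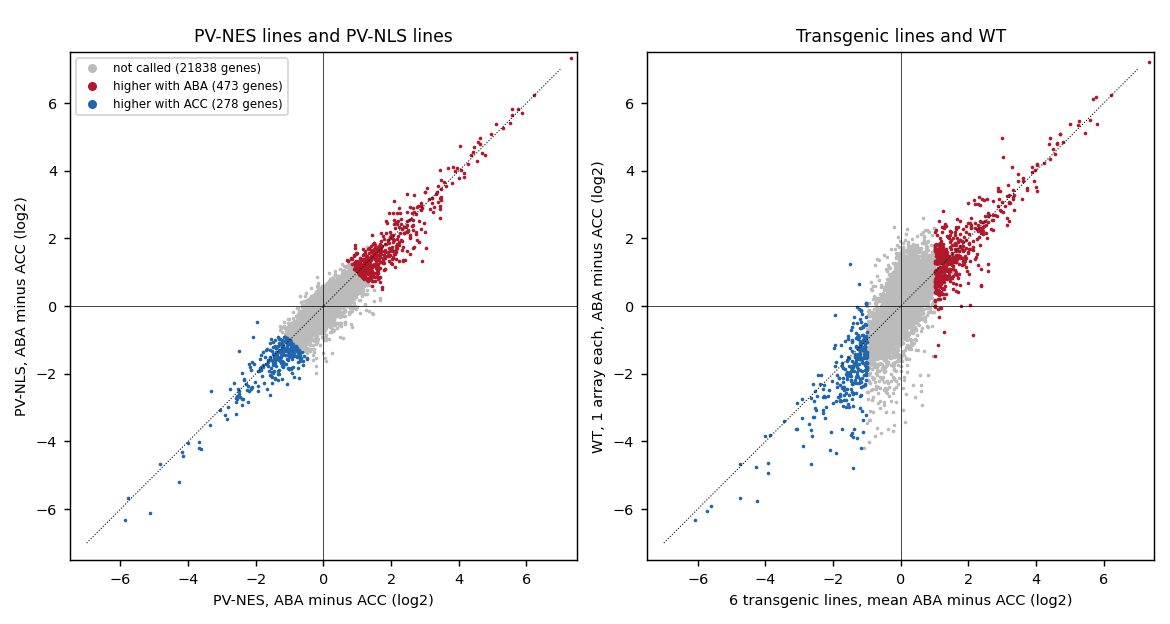
ABA minus ACC difference (log2) of every gene, with PV-NES (horizontal) against PV-NLS (vertical) on the left and the mean of 6 transgenic lines (horizontal) against WT (vertical) on the right; red and blue are the 473 and 278 called genes, grey was not called and the dotted line marks equal values. Most called genes keep their sign in both panels, and in WT 463 and 273 do, without a share over all genes to set beside them.

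Some called genes were neighbours on the chromosome. Of 221 measured neighbours of genes higher with ABA, 18 (8.14%) were also higher with ABA, beside 1.90% among measured neighbours of all genes. These were 9 pairs, each counted from both ends. On the ACC side it was 8 of 152 (5.26%), beside 1.31%, from 4 pairs of only 7 distinct genes. AT1G52050, AT1G52060 and AT1G52070, which follow each other, were all higher with ACC, by -1.60 (SE 0.15), -1.91 (SE 0.17) and -3.92 (SE 0.17). AT1G52070 lay between 6.74 and 7.88 with ACC and between 3.19 and 3.66 with ABA. BGLU24, a beta-glucosidase gene, and AT5G28520 beside it were higher with ABA, by 3.21 (SE 0.12) and 2.73 (SE 0.09). Neighbours can be similar copies whose probe sets share signal, which was not tested.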

How the data were processed

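RNA of 29 seedling samples in 12 groups was measured on ATH1 arrays. The authors deposited RMA values per probe set, taken as log2 from their range (1.35 to 13.3) and used unchanged. The number of arrays limits the precision. The labels name Trizol extraction, the methods a column kit. The ACC treatment is described in the labels only.

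Of 22810 probe sets, 64 controls were left out. One gene was named for 13513, several for 503 and none for 8730, and the last 2 kinds were tested but not named. The brightest probe set stood for each of 146 genes with several, which left 22589. Symbols came from the platform annotation, and 13436 probe sets matched RefSeq (TAIR10.1).

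The paired model used limma (version 3.58.1, under R 4.3.3) and took line as block (5 residual degrees of freedom), by genotype on the same arrays and against control on 18 arrays. With 1 array per line and treatment, p-values measure how the difference between treatments varied from line to line, array noise included. Pairing rests on the labelled line. The ABA and ACC deviations of a line from the group means had r of -0.08 to 0.16 (median 0.08), against a median of -0.04 between lines.

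Members and lists were chosen with earlier results of these data known, so no list was tested. From 48 lists, 31 entries that named another kind of protein were removed after a look at the members, and 3 lists of the supplement were added. Apart from the plastid genes and the lists of the supplement, members were found by symbol or synonym. Family members known by locus alone, LEA genes among them, can therefore be missing. Named are the 12 largest called differences each way, up to 4 called and 2 bright uncalled members per list, hormone signalling genes, the 4 smallest interaction p, the 4 largest differences from control each way, and 28 genes picked after their values were seen. Alternatives were other fits, normalizations, filters, fold limits and each line left out.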

Additional observations from a re-analysis of the deposited data

Results flagged for a closer look

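The 6 line differences of 167 genes were examined for 1 line far from the rest (Dixon's limit at 95%). This marked 13 genes, and chance marks about 1 in 20. PV-NES line 7 gave PUB19 3.69 against 2.099 to 2.68 in the other lines, UGT88A1 -0.22 against 0.14 to 0.32 and CML38 1.06 against -2.09 to -1.62. PV-NLS line 4 gave AT3G58550 1.298 against 2.52 to 3.18 and COR47 0.79 against 1.296 to 1.59. PV-NLS line 5 gave TBL37 0.62 against 1.17 to 1.41 and EXGT-A3 -0.20 against 0.40 to 0.54. The same line gave PDF1.2 -3.56 against -0.69 to 0.27 and PDF1.2b -4.46 against -0.33 to 0.21. It also gave CYP718 -2.301 against -1.59 to -1.19 and AT1G49570 -4.28 against -4.93 to -4.75. PV-NLS line 8 gave UGT74B1 -0.69 against -0.21 to 0.07. PV-NES line 11 gave AT4G12490 -1.95 against -5.62 to -4.47.

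In 5 of the same 167 genes, some of them named for a small p of this very difference, every PV-NES line went one way and every PV-NLS line the other. Over all genes tested this held for 520, or 2.3%. PV-NLS minus PV-NES was 0.41 for IAA18, 0.89 for AT4G04760, 0.32 for TBL25, -1.10 for ndhJ and -1.04 for ndhK. None passed the test of the difference after adjustment over all genes.

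Arrays with methyl jasmonate (MeJA), which entered no comparison above, showed levels over 2-fold above control in every line for 3 of the 12 named genes with the largest ACC over ABA differences. MeJA minus control averaged 4.42 for AT5G19890 (3.44 to 4.95), 3.39 for AT1G49570 (2.56 to 4.13) and 2.42 for AT1G66100 (2.22 to 2.62). The share of all genes over 2-fold above control with MeJA in every line was not counted. The 3 of 12 therefore has no background to stand against, and a link between the ACC side and MeJA was not tested.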

How the results depend on the processing

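The 473 and 278 genes separated by ABA and ACC stayed within 1.5 times under every other fit, normalization and filter, and only the fold limit moved them, to 1032 and 798 at 1.5-fold and 137 and 49 at 4-fold. Without the replicate block 473 and 277 genes were called, all 750 among the 751. The block moved a count by over 1.5 times only between genotypes, where 2 genes were lower in PV-NLS without it in place of 0. Leaving out 1 line gave 462 to 491 and 262 to 308 genes, 517 to 541 and 252 to 271 in PV-NES, 431 to 487 and 327 to 406 in PV-NLS, and 0 to 1 between genotypes, with 1 gene without PV-NES line 1 or PV-NLS line 8. Of 2842 values of named genes, 19 lost a call, 10 gained one and 0 changed direction while called. XTH26, CML38, AT3G22240 and AT1G12030 were not called in a paired t-test (adjusted p of 0.108, 0.130, 0.0605 and 0.0535), and the cause was not tested. The promoter motif comparison was not run. Low signals limit fold sizes.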

Other observations

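Other named genes, picked after their values were seen, also separated the hormones. BGLU19, a beta-glucosidase gene, lay between 4.93 and 6.81 with ABA and between 3.90 and 5.02 with ACC, a difference of 1.94 (SE 0.20). The BGLU19 groups overlapped through PV-NES line 11 with ABA and PV-NLS line 5 with ACC. AT4G21020, of the LEA protein family and in none of the lists, differed by 2.17 (SE 0.14). The heat shock gene ATHSP22.0 differed by 1.43 (SE 0.10), with 4.77 to 5.50 against 3.51 to 3.76. On the ACC side, ALN, the allantoinase of purine breakdown, differed by -1.65 (SE 0.09), with 4.25 to 5.28 against 6.09 to 6.58. AT3G13610 (F6'H1), the feruloyl-CoA hydroxylase of coumarin synthesis, differed by -1.78 (SE 0.20), with 5.11 to 6.88 against 7.66 to 8.21.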
